A study of Mus musculus with 12 samples.

Results

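Mist1, the product of the Bhlha15 gene, is a basic helix-loop-helix transcription factor of secretory cells, among them the acinar cells of the pancreas, the zymogenic cells of the stomach and the antibody-secreting cells of the B cell lineage. Such factors bind DNA as dimers at E-boxes, short sites of the form CANNTG. In exocrine cells Mist1 is known for maintaining the apical secretory apparatus, and the small GTPases Rab3d and Rab26 of secretory granules are among the genes that depend on it there. In plasma cells (PCs) it acts next to Blimp1 (Prdm1), Irf4 and Xbp1, the factors that install the antibody secretion program.

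The question addressed here is which genes differed between splenic PCs that lack Mist1 and control PCs. The comparison comprised 4 of the 12 samples of the series and all genes listed in their files. The spleens of C57BL/6 mice were taken on day 7 after immunization with the hapten-protein conjugate NP-KLH, and PCs were sorted by their surface TACI and CD138. The 2 Mist1-deficient libraries were from Cd23-Cre Bhlha15 fl/fl mice, in which Cre recombinase is expressed from Cd23 regulatory sequences and thus deletes the floxed gene in immature and mature B cells, before PCs arise. The 2 control libraries were labelled wildtype by the submitters, whereas the methods of the study give their genotype as Bhlha15 fl/fl, so that the controls carried the floxed allele without Cre. The floxed allele of both groups also carries an N-terminal biotin acceptor sequence, and the controls had no Cre. The methods speak of independent experiments, but the age, sex and number of the mice behind each library were not given in the sources used here, so the p-values measure the spread between these libraries, part of which may be technical. For a single gene, an exact permutation test of 2 against 2 libraries cannot give a p-value under 0.333, and all adjusted p-values below are from limma, which pools the spread over all genes.

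The libraries were of similar depth, with 21292737 and 27607781 reads estimated for the control and 27148791 and 28548198 for the Mist1-deficient PCs, which leaves 11756 to 11953 genes at 1 TPM (transcript number scaled to a fixed library total) or more in each library. The replicates of a group differed by a median of 0.13 (control) and 0.080 (Mist1-deficient) on the log2 scale. Plasma cell identity was clear in every library, as Igj, the joining chain of secreted IgM, alone accounted for 7.12% to 7.75% of all TPM, and Sdc1 (CD138), the surface marker of the sort, was at 458, 395, 571 and 566 TPM in control replicates 1 and 2 and Mist1-deficient replicates 1 and 2. All TPM values below are given in this order. RNA of other cells was present at low levels. The 14 T cell markers summed to 142, 148, 171 and 219 TPM and were thus higher in the Mist1-deficient libraries, the 15 neutrophil markers in the files summed to 1051, 519, 913 and 605 TPM, and the 14 markers of macrophages and monocytes to 347, 333, 356 and 297 TPM. All 14 T cell, 15 neutrophil and 14 macrophage and monocyte markers were above 1 TPM in at least 1 library. Their part in the results was not tested. In bulk RNA, fewer cells of a type and less RNA per cell cannot be told apart.

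The libraries also differed in sex-linked RNA. Xist, the noncoding RNA of the inactive X chromosome, was at 264, 239, 527 and 470 TPM, and the Y-linked gene Eif2s3y at 49.7, 83.1, 41.6 and 0 TPM. Both kinds of RNA were therefore present in the first 3 libraries, whereas Mist1-deficient replicate 2 was listed at 0 TPM for Eif2s3y and Uty and was at 0.0187 and 0.0158 TPM for Ddx3y and Kdm5d. Xist was higher in both Mist1-deficient libraries. The part of the sex of the mice in the results was not tested, but the direction of the called genes without this library is given below. Among the 359 X-linked genes tested, 2 were called lower by limma, namely Plxna3 and Car5b, and 0 higher. Of the 359, 53 and 55 passed an adjusted p of 0.05 in the lower and higher direction. Over all 12028 genes tested, 0.723% were called lower and 0.125% higher, and 16.2% and 13.3% passed the adjusted p in these directions. The median log2 fold change of X-linked genes was 0.05.

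Bhlha15 (chr5:144951155-144955310, plus strand, mm9), the targeted gene, was at 258 and 242 TPM in control PCs and at 14.4 and 16.6 TPM in Mist1-deficient PCs, which corresponded to a 15.9-fold decrease (log2 fold change -3.99 ± 0.096 SE, adjusted p = 0.000278). The groups matched their labels. The remaining Bhlha15 RNA rested on an estimated 545 and 669 reads per library. By intracellular staining of splenic PCs of the same genotype and immunization, the study reports a complete loss of Mist1 protein. The extent of the deletion at the DNA level is not given in the sources used here. Reads from an undeleted part of the gene, from cells that kept the allele and from other cells of the sort cannot be told apart.

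The filter kept 12028 genes that reached 1 TPM in 2 or more PC libraries. Of these, 87 were called lower (0.723% of all genes tested) and 15 higher (0.125%) in Mist1-deficient PCs. A call required more than a 3-fold difference, a mean over 5 TPM on the higher side and an adjusted p below 0.05. Without Mist1-deficient replicate 2, the library without Y-linked RNA, none of the 87 and 15 called genes changed sign, although not all calls were kept. The genes past the adjusted p alone became fewer when either Mist1-deficient library was left out, not only this one. Without control replicate 2, 30 genes were called higher, and without control replicate 1, 10 were. The decreases were larger than the increases. The median fold of the called genes was 4.27 for the lower and 3.52 for the higher ones, and 13 of the lower but 0 of the higher genes differed by more than 8-fold. The genes called lower were moderately expressed in control PCs (median 17.8 TPM, with 15 genes above 100 TPM). Those called higher were low there (median 2.55 TPM) and reached a median of 11.4 TPM without Mist1. Part of this difference follows from the call, which set the 5 TPM on control PCs for lower and on Mist1-deficient PCs for higher genes. By adjusted p alone, 1953 genes were lower (16.2%) and 1601 higher (13.3%), although 974 and 1213 of them, respectively, differed by less than 1.5-fold. The control and Mist1-deficient libraries did not overlap for any of the 102 called genes, but they also did not overlap for 68.7% of all genes tested.

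**Figure D1:**
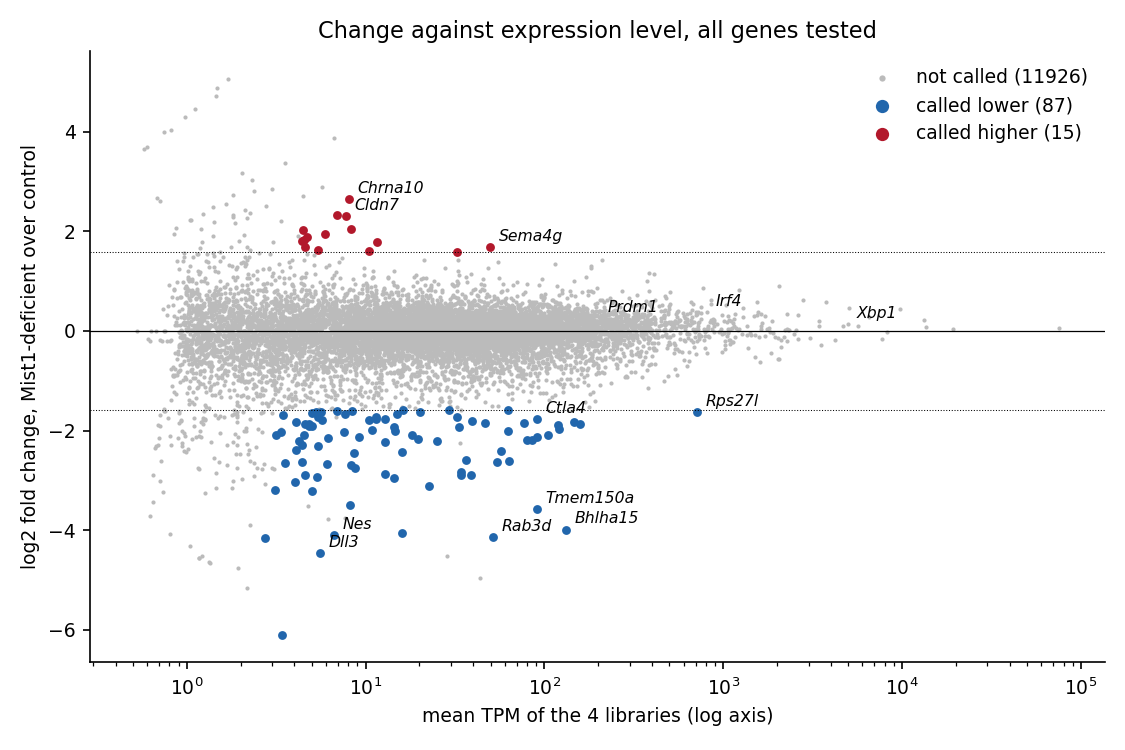
Log2 fold change (Mist1-deficient over control PCs) of the 12028 genes tested, plotted against the mean TPM of the 4 libraries on a log axis. Blue and red points are the 87 genes called lower and the 15 called higher, grey points were not called, and dotted lines mark a fold of 3. The called decreases reach genes of 100 TPM and more such as Bhlha15, Tmem150a and Rps27l, while the called increases lie at low levels, with Sema4g the highest.

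The secretory granule GTPase Rab3d was among the genes with the largest falls. Rab3d (chr9:21711935-21722636) was at 116 and 79.7 TPM in control PCs and at 4.57 and 6.14 TPM in Mist1-deficient PCs, a 17.6-fold decrease (log2 -4.14 ± 0.23, adjusted p = 0.00117). Both Mist1-deficient values lay far below both control values, and the log2 fold change stayed between -4.44 and -3.84 whichever single library was removed. Dll3 (chr7:29076673-29087257), an atypical ligand of the Notch pathway, was at 13.4, 8.15, 0.383 and 0.361 TPM. Among called genes, its 22.1-fold decrease (log2 -4.47 ± 0.32, adjusted p = 0.00149) was the largest apart from that of a microRNA gene described below. Nes (chr3:87775000-87784373), encoding the intermediate filament protein nestin of neural progenitors, was at 14.9, 10.6, 0.496 and 0.792 TPM and decreased 17.1-fold (adjusted p = 0.00154). Both genes were expressed at a low but clear level in control PCs and were close to absent in both Mist1-deficient libraries.

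Tmem150a, a membrane protein linked to phosphoinositide synthesis at the plasma membrane, was at 189, 148, 13.1 and 14.5 TPM (11.9-fold, adjusted p = 0.000748). Gm996, a gene with no assigned role, was at 33.7, 26.5, 1.55 and 1.79 TPM (16.7-fold, adjusted p = 0.000748). Asap3, a GTPase-activating protein for Arf proteins, was at 6.09, 4.47, 0.0989 and 0.342 TPM (17.7-fold, adjusted p = 0.00378). Further genes of this group were Serpini1, the serine protease inhibitor neuroserpin (45.7, 35.5, 3.79 and 5.31 TPM), the porphyrin transporter Abcb6 (78.9, 59.3, 8.66 and 9.40 TPM), the kinesin Kif19a (24.5, 20.9, 2.84 and 3.05 TPM) and Cib2, a calcium- and integrin-binding protein (73.4, 47.4, 7.5 and 8.60 TPM). They decreased between 7.17-fold (Cib2) and 8.68-fold (Serpini1), with adjusted p-values of 0.000987 (Kif19a) to 0.00174 (Cib2). The microRNA gene Mir7061 had a larger fitted change than all of these, but it rested on an estimated 4 and 5 reads in control and 0 in Mist1-deficient libraries, so that no fold is given. In total, 3 of the 87 genes called lower and 3 of the 15 called higher were small RNA genes, and 3 and 3 had fewer than 100 estimated reads in the 4 libraries together. Of the 80 genes called lower that could be placed on mm9, 20 have exons that overlap another gene on the other strand. Among them were Tmem150a (with Rnf181), Gm996 (with Gm17550) and Cib2 (with Sh2d7).

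**Figure D2:**
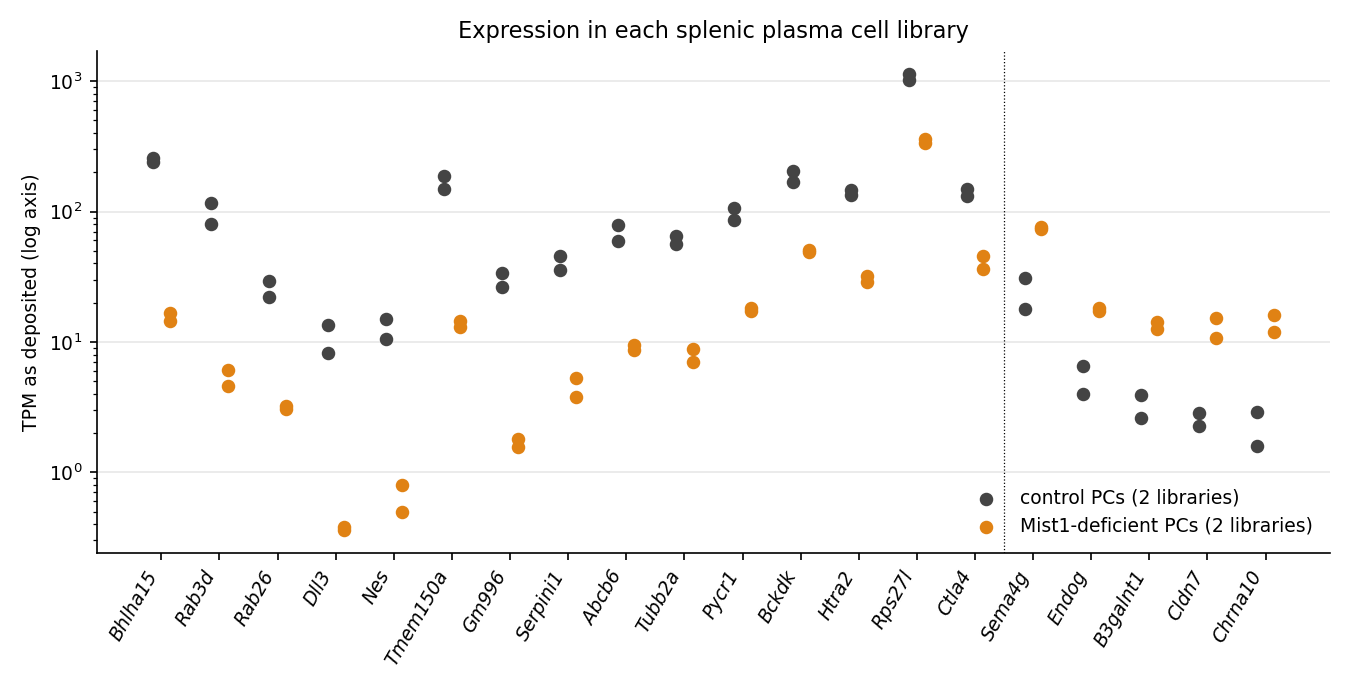
TPM as deposited, on a log axis, of 20 called genes in each of the 2 control (grey) and 2 Mist1-deficient (orange) PC libraries. Genes left of the dotted line were called lower and those right of it higher, and for each of them both points of a group lie on the same side of both points of the other group.

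Of 47 Rab GTPases tested, 3 were called lower and 0 higher by limma, 8 passed the adjusted p in the lower and 4 in the higher direction (17.0% and 8.51%, against 16.2% and 13.3% of all genes), and the median log2 fold change of the family was -0.05 compared with 0.01 for all genes. The 3 called members were Rab3d, Rab26 and Rab20. Rab26 (chr17:24664740-24670692), which acts in the maturation of secretory granules, was at 29.1, 21.9, 3.21 and 3.08 TPM (7.72-fold, adjusted p = 0.0013). Rab20 was at 8.80, 6.83, 1.15 and 3.36 TPM (3.73-fold, adjusted p = 0.0329), and its adjusted p was between 0.0631 and 0.0943 under 4 alternatives, among them 0.0847 without control replicate 1, while its log2 fold change was -1.16 without Mist1-deficient replicate 1. Rab27a, the GTPase of lysosome-related secretory organelles, was lower by 2.30-fold at 56.1, 47.7, 22 and 22.2 TPM (adjusted p = 0.00212). The paralog Rab3a differed much less than Rab3d, with 43.5, 41.6, 32.2 and 33.2 TPM (1.28-fold, adjusted p = 0.0181). Sytl1, a synaptotagmin-like effector of Rab27 proteins, was called lower at 11.7, 9.30, 2.96 and 3.74 TPM (3.04-fold, adjusted p = 0.00417), as the only called member of 23 tested genes of exocytosis and vesicle tethering, of which 5 were lower and 4 higher by adjusted p (21.7% and 17.4%). Of the 5 genes listed as Mist1 targets of exocrine cells, 3 were tested and all 3 decreased, namely Rab3d, Rab26 and the ubiquitin ligase gene Mib1 (99.2, 99.8, 50.3 and 44.2 TPM, 2.08-fold, adjusted p = 0.00154). This short list was chosen for its known dependence on Mist1.

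Of 14 tubulins tested, the subunits of microtubules, 9 were lower and 1 higher by adjusted p (64.3% and 7.14%, against 16.2% and 13.3% of all genes), and their median log2 fold change was -0.62. Tubb2a (chr13:34166170-34169877), a beta-tubulin, was at 64.7 and 56.5 TPM in control and at 8.88 and 7.06 TPM in Mist1-deficient PCs (7.45-fold, adjusted p = 0.000987) and was the only called member. Its close neighbor and paralog Tubb2b was at 51.9, 45.3, 16.6 and 16.2 TPM (2.90-fold, adjusted p = 0.00133). These paralogs are nearly identical, and how reads shared between them were counted is not given, so that their separate values are uncertain. Tubb3, the neuronal beta-tubulin, was at 1.5, 2.07, 0.267 and 0.553 TPM, and the testis-type alpha-tubulin gene Tuba3b was the member that rose (3.83, 2.92, 5.46 and 6.36 TPM, adjusted p = 0.0327). Of 25 kinesins, 6 were lower and 1 higher by adjusted p (24% and 4%). Apart from Kif19a, these included the transport kinesin Kif5c at 4.87, 3.34, 1.17 and 1.28 TPM (3.08-fold, adjusted p = 0.0108), which stayed below the required 5 TPM.

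Several enzymes of amino acid metabolism were lower as well. The gene lists and families of this report were written with earlier results of these data known, so their shares describe the members and are no independent support. Of 18 genes for the synthesis of proline, serine, alanine and related amino acids, 11 were lower and 1 higher by adjusted p (61.1% and 5.56%, against 16.2% and 13.3% of all genes), and the median log2 fold change was -0.40. Pycr1 (chr11:120497026-120505083), which encodes a mitochondrial reductase of the final step of proline synthesis, was at 107, 86.2, 17.2 and 18.3 TPM (5.31-fold, adjusted p = 0.00115). Both Mist1-deficient values lay far below both control values. Aldh18a1, which makes the precursor pyrroline-5-carboxylate from glutamate, was at 228, 189, 91.5 and 98.9 TPM (2.15-fold, adjusted p = 0.00276). Oat, which makes the same precursor from ornithine, was the 1 member that rose, from 109 and 105 to 174 and 173 TPM (1.64-fold, adjusted p = 0.00195).

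The transaminases Gpt2, which forms alanine in mitochondria, and Got1, which interconverts aspartate and glutamate in the cytosol, were lower as well. Gpt2 was at 19.6, 16, 4.45 and 5.81 TPM (3.39-fold, adjusted p = 0.00277), and Got1 at 158, 131, 58.4 and 61.1 TPM (2.38-fold, adjusted p = 0.00213). The serine synthesis enzymes Phgdh and Psat1 differed less, with log2 fold changes of -0.46 ± 0.11 and -0.45 ± 0.097 (adjusted p = 0.0328 and 0.0211). Genes of branched chain amino acid breakdown were counted in the same way, and 7 of 12 were lower and 1 higher by adjusted p (58.3% and 8.33%), with a median of -0.42. This list, too, was written with earlier results known. Bckdk (chr7:135047596-135053178), the kinase that switches off the branched chain ketoacid dehydrogenase, was at 205, 170, 49.2 and 50.3 TPM (3.70-fold, adjusted p = 0.0013). Bckdhb, a subunit of that dehydrogenase, was at 36.8, 30.8, 16.1 and 14.6 TPM (2.16-fold, adjusted p = 0.00322). RNA of the inhibitory kinase and of this subunit of the dehydrogenase thus both fell. Of 14 targets of ATF4 and the integrated stress response, 3 were lower and 1 higher by adjusted p (21.4% and 7.14%). Over all genes these shares were 16.2% and 13.3%, and the median of the 14 targets was -0.03. The lower ones included Ddit4, an inhibitor of mTORC1 (100.1, 89.4, 38.9 and 33.7 TPM, adjusted p = 0.00164), and Asns, the asparagine synthetase (101, 87.9, 46.4 and 52.6 TPM, adjusted p = 0.00393).

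Ckb, the cytosolic creatine kinase of brain, was at 76.0, 70.7, 22 and 18.1 TPM (3.62-fold, adjusted p = 0.00133). Of 19 glycolysis genes, 7 were lower and 5 higher by adjusted p (36.8% and 26.3%, against 16.2% and 13.3% of all genes), and 2 were called lower. These were Pgam2, the muscle form of phosphoglycerate mutase (148, 93.7, 34.0 and 30.2 TPM, 3.62-fold, adjusted p = 0.00405), and the hexose transporter gene Slc2a6 (57.3, 48.5, 13.4 and 13.9 TPM, 3.79-fold, adjusted p = 0.0013). Fads2, a fatty acid desaturase, was the only called gene of 22 for cholesterol and fatty acid synthesis (35, 25.8, 10.8 and 8.51 TPM, 3.07-fold, adjusted p = 0.00393). In ceramide metabolism, where 5 of 16 genes were lower and 4 higher by adjusted p (31.2% and 25%), 3 of the 4 ceramidases tested were lower. The neutral ceramidase gene Asah2 was called lower at 18, 12, 3.08 and 3.42 TPM (4.38-fold, adjusted p = 0.00286). The alkaline ceramidase gene Acer2 was at 3.44, 3.52, 0.985 and 0.680 TPM (adjusted p = 0.00692), and the lysosomal ceramidase gene Asah1 at 136, 122, 79.0 and 74.5 TPM (1.65-fold, adjusted p = 0.00393), whereas Acer3 had a log2 fold change of 0.20 (adjusted p = 0.252). Smpd1, the acid sphingomyelinase that produces ceramide, rose from 80.1 and 73.0 to 122 TPM in both Mist1-deficient libraries (1.61-fold, adjusted p = 0.00334). Within the oxidative phosphorylation family, 21 of 89 genes were higher and 5 lower by adjusted p (23.6% and 5.62%, against 13.3% and 16.2% of all genes), with none past 2-fold and a median of 0.13.

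Other called genes that fell encode mitochondrial, ribosomal and surface proteins. Htra2 (chr6:83001260-83005267), a serine protease of the mitochondrial intermembrane space, was at 145, 134, 28.6 and 31.9 TPM (4.54-fold, adjusted p = 0.000748), but its exons overlap those of Aup1 and Loxl3 on the other strand. Rps27l, a ribosomal protein paralog and p53 target, had the highest expression of all called genes, at 1024, 1144, 336 and 357 TPM (3.08-fold, adjusted p = 0.000748). It was the only cytosolic ribosomal protein gene of 80 tested that was called, and the family as a whole was at a median of -0.05. Among the 16 p53 targets tested, 4 were lower and 4 higher by adjusted p (25% for each, against 16.2% and 13.3% of all genes). Creb3l1, a membrane-bound transcription factor of the endoplasmic reticulum (ER), was at 8.19, 6.36, 1.62 and 2.18 TPM (3.65-fold, adjusted p = 0.0045), whereas its relative Creb3 was slightly higher (128, 132, 174 and 170 TPM, adjusted p = 0.0042). The vacuolar ATPase subunit gene Atp6v1g2 fell from 17.8 and 14.6 to 4.00 and 5.16 TPM (3.44-fold, adjusted p = 0.00268), and its more abundant paralog Atp6v1g1 rose from 50.8 and 56.4 to 71.2 and 72.7 TPM (1.36-fold, adjusted p = 0.00592).

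Of 29 surface and homing genes of PCs, 10 were lower and 6 higher by adjusted p (34.5% and 20.7%, against 16.2% and 13.3% of all genes). Ctla4 (chr1:60943844-60972676), an inhibitory receptor that binds CD80 and CD86, was at 149, 132, 45.2 and 36.3 TPM (3.42-fold, adjusted p = 0.00151) and was the only called member. T cells also express Ctla4, and the summed T cell markers given above were higher in the Mist1-deficient libraries. Cd93, a receptor required for the maintenance of antibody secretion, was at 139, 129, 58.4 and 52.3 TPM (2.39-fold, adjusted p = 0.00133). Fcgr2b, the inhibitory receptor for IgG, was at 271, 242, 106 and 103 TPM (2.42-fold, adjusted p = 0.00133). Gpr65, a proton-sensing receptor, fell from 117 and 101 to 17.8 and 17.4 TPM (6.07-fold, adjusted p = 0.000748). In the opposite direction, the costimulatory receptor gene Cd28 rose from 115 and 126 to 215 and 195 TPM (1.73-fold, adjusted p = 0.00195), Epcam from 140 and 118 to 228 and 211 TPM (1.73-fold, adjusted p = 0.00542) and Slamf7 from 373 and 378 to 540 and 524 TPM (1.43-fold, adjusted p = 0.00277). Cd28 is a T cell gene as well, and 3 of the 14 T cell markers, among them Cd5 (7.85, 6.67, 12.1 and 14 TPM), passed the adjusted p in the higher direction.

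**Figure D3:**
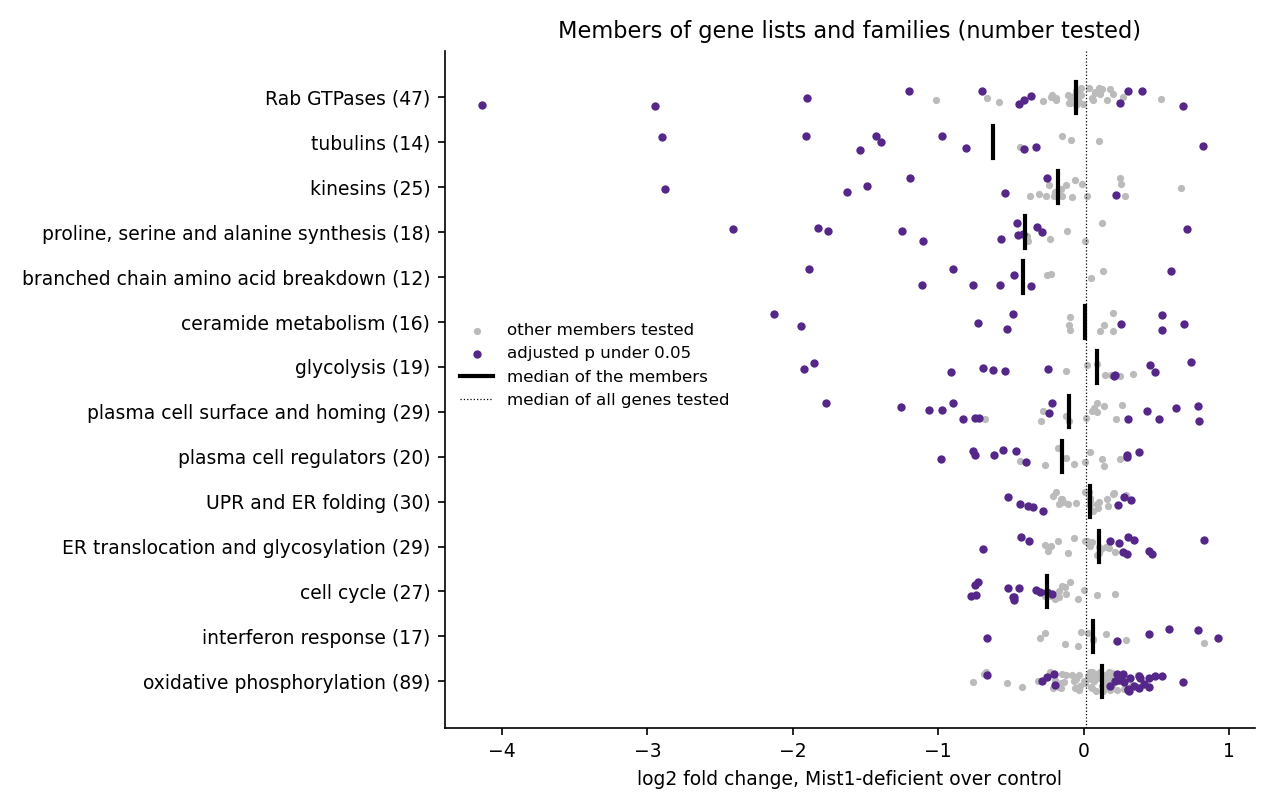
Log2 fold changes (Mist1-deficient over control PCs) of the members of 14 gene lists and families, with the number tested in brackets. Purple points passed an adjusted p of 0.05, grey points did not, black bars are the medians of the lists and the dotted line is the median of all genes tested. The medians of the tubulins (-0.62), branched chain amino acid breakdown (-0.42) and amino acid synthesis (-0.40) lie farthest to the left, whereas the Rab GTPases hold single large falls around a median of -0.05. All lists were written with earlier results of these data known.

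Prdm1, Irf4 and Xbp1, the factors that install the secretion program, differed by less than 1.5-fold. Prdm1 (Blimp1), the repressor that drives terminal differentiation, was at 175, 198, 237 and 203 TPM. Its lowest Mist1-deficient value lay only slightly above the highest control value, and the log2 fold change of 0.25 ± 0.087 did not pass the threshold (adjusted p = 0.0793). With limma voom on the estimated reads, an alternative added after the data were seen, the adjusted p was 0.0407. Irf4, which is required for PC generation and survival, rose from 688 and 739 to 947 and 886 TPM (1.30-fold, log2 0.38 ± 0.062, adjusted p = 0.00952). Without Mist1-deficient replicate 1 or 2 the adjusted p of Irf4 was 0.114 and 0.0765. Xbp1, the regulator of the unfolded protein response (UPR), was at 5099, 4458, 5296 and 5086 TPM, and the groups overlapped (log2 0.14 ± 0.11, adjusted p = 0.38).

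Tcf3 (E2A), the partner with which tissue-specific factors of this class form dimers, rose from 179 and 198 to 229 and 228 TPM (log2 0.30 ± 0.055, adjusted p = 0.0136), although not past the threshold without either Mist1-deficient library (adjusted p = 0.112 and 0.127). Its relative Tcf4 (E2-2) was at 164, 167, 159 and 153 TPM (log2 -0.07 ± 0.054, adjusted p = 0.376). The Ikaros family genes Ikzf1 and Ikzf3 (Aiolos) were at 196, 199, 180 and 179 TPM and at 212, 239, 240 and 245 TPM (adjusted p = 0.131 and 0.169). Pax5, a B cell identity factor that is downregulated from mature B cells to PCs, was at 28.8, 44.0, 33.0 and 33.0 TPM with overlapping groups (adjusted p = 0.727). Across 11043 of the genes tested, the median was 27.4 TPM in control PCs. Among the 20 regulators listed for PCs, the largest change was that of Pou2f2 (Oct2), which fell from 123 and 122 to 65.4 and 56.9 TPM (1.98-fold, adjusted p = 0.00184). Myc followed at 64.5, 65.4, 36.6 and 38.9 TPM (1.70-fold, adjusted p = 0.00195). Of 20 regulators, 7 were lower and 3 higher by adjusted p (35% and 15%, against 16.2% and 13.3% of all genes), and 0 were called by limma.

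Of 30 UPR and ER folding genes, 5 were lower and 3 higher by adjusted p, shares of 16.7% and 10% that were near the 16.2% and 13.3% of all genes, and 0 differed by more than 2-fold (median 0.04). P4hb, the protein disulfide isomerase, was at 1918, 1656, 1236 and 1220 TPM (1.43-fold lower, adjusted p = 0.0159), and Herpud1, a component of ER-associated degradation, at 2262, 2038, 1593 and 1530 TPM (1.36-fold lower, adjusted p = 0.0185). Of 29 ER translocation and glycosylation genes, 9 were higher and 3 lower by adjusted p (31.0% and 10.3%). The ER immunophilin gene Fkbp11 rose from 787 and 1014 to 1590 and 1537 TPM (1.77-fold, adjusted p = 0.0048), while Tram1 of the translocation channel fell from 841 and 728 to 485 and 469 TPM (1.62-fold, adjusted p = 0.00592). Derl3, a membrane component of ER-associated degradation, was at 2436, 2416, 1569 and 1679 TPM (1.48-fold lower, adjusted p = 0.00521). Immunoglobulin genes themselves could not be compared, since they and the T cell receptor genes were listed at 0 in all PC files.

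Cell cycle genes that changed were all lower. Of 27 such genes, 13 were lower and 0 higher by adjusted p in limma (48.1% against 16.2% of all genes in the lower direction), at a median of -0.25 and with no member past 2-fold. Ccna2 (cyclin A2) was at 75.1, 72.2, 43.7 and 41.4 TPM (1.71-fold, adjusted p = 0.00213), Mcm2 of the replicative helicase at 87.7, 86.0, 51.5 and 50.4 TPM (1.68-fold, adjusted p = 0.00188) and Rrm2 of ribonucleotide reductase at 222, 221, 132 and 129 TPM (1.67-fold, adjusted p = 0.0016). Of 10 MHC class II genes, which PCs express less than B cells, 3 were lower and 0 higher by adjusted p in limma (30% lower), among them H2-Eb2 (58.8, 57.3, 30.7 and 30.7 TPM, 1.87-fold, adjusted p = 0.0016). Of 25 B cell surface and receptor signaling genes, 6 were lower and 2 higher by adjusted p (24% and 8%), with a median of -0.08. Of 17 interferon response genes, 5 were higher and 1 lower by adjusted p (29.4% and 5.88%, against 13.3% and 16.2% of all genes), at a median of 0.06. The higher ones included Isg15 (58.1, 71.4, 117 and 124 TPM, 1.90-fold, adjusted p = 0.00255) and Bst2 (355, 391, 653 and 615 TPM, 1.72-fold, adjusted p = 0.00174).

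The 15 genes called higher were a heterogeneous set, among them several without a known role in PCs. Chrna10 (chr7:109259780-109265227), a subunit of nicotinic acetylcholine receptors, was at 1.59 and 2.91 TPM in control and at 16 and 12 TPM in Mist1-deficient PCs (6.26-fold, log2 2.65 ± 0.29, adjusted p = 0.00302). Cldn7, a tight junction claudin of epithelia, was at 2.83, 2.26, 15.2 and 10.7 TPM (4.95-fold, adjusted p = 0.00235). B3galnt1, the glycosyltransferase that makes the glycolipid globoside, was at 2.60, 3.91, 12.5 and 14.1 TPM (4.12-fold, adjusted p = 0.00246). These 3 genes were low in the control libraries, with an estimated 34 to 97 reads in each. With a pseudocount of 1 in place of 0.1, 8 genes were called higher. Endog, a mitochondrial nuclease, was at 3.99, 6.55, 18.2 and 17.3 TPM (3.46-fold, adjusted p = 0.00386), and its exons overlap those of D2Wsu81e on the other strand. Aire, the activator of tissue antigens in the thymus, was at 1.74, 2.57, 6.45 and 7.57 TPM (3.24-fold, adjusted p = 0.00486) and overlaps Dnmt3l on the other strand.

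Sema4g, a transmembrane semaphorin, was the most abundant gene called higher, at 18, 31.0, 74.1 and 75.7 TPM (3.20-fold, adjusted p = 0.00496). Ifnar2, a subunit of the type I interferon receptor, rose from 62.4 and 68.5 to 164 and 166 TPM (2.55-fold, adjusted p = 0.000748), and Il13ra1, a receptor chain for IL-4 and IL-13, from 18.2 and 18 to 48.4 and 47.7 TPM (2.68-fold, adjusted p = 0.000987). Both were singled out after their values were seen, and Il13ra1 is X-linked.

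The effect of Mist1 loss in PCs was compared with that in plasmablasts (PBs), which are the proliferating precursors of PCs. These PBs were generated in vitro on day 8 of the iGB culture, from Bhlha15 CreER/CreER mice, in which both Bhlha15 alleles carry CreER, with Xbp1 fl/fl PBs as reference, and 2 libraries for each genotype. The 2 comparisons share no library, but cell type, Mist1 allele, control genotype and culture all differ between them and cannot be told apart. In PBs, Bhlha15 was at 176 and 159 TPM in the reference and at 0.210 and 0.551 TPM in Bhlha15 CreER/CreER cells, so that more Bhlha15 RNA remained in Mist1-deficient PCs than in these PBs. Of the 87 genes called lower in PCs, 79 also had a negative fold change in PBs, and 16 of them passed the adjusted p there (0.497% of all 13076 genes tested in PBs were lower). The median log2 fold change of the 87 genes was -2.09 in PCs and -0.59 in PBs. Of the 15 genes called higher in PCs, 11 had a positive fold change in PBs and 0 passed the adjusted p in limma (0.145% of all genes were higher by adjusted p). The shares of all genes with a negative or positive fold change in PBs are not given, so the counts by sign have no background here.

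The difference between the effects was tested directly, as an interaction in limma over 8 libraries. By this test, 64 of the 87 genes fell significantly more in PCs and 1 fell more in PBs, which was Bhlha15 itself. Of the 15 genes, 5 rose significantly more in PCs. Both sets had been chosen by their change in the same PC libraries, which favors a larger effect in PCs, also in the median above. These counts among called genes were not repeated with a library left out. Of all 13076 genes, 416 (3.18%) differed toward a lower and 179 (1.37%) toward a higher value in Mist1-deficient PCs. These totals fell to between 21 and 78 and between 5 and 35 when either control PC replicate 1, a Mist1-deficient PC library or an Xbp1 fl/fl PB library was left out, and the lower total was 249 without Bhlha15 CreER/CreER PB replicate 2. Rab3d was low in Mist1-deficient cells of both kinds, as it was at 26.2 and 25.4 TPM in reference PBs and at 3.6 and 3.11 TPM in Bhlha15 CreER/CreER PBs (log2 -2.87 ± 0.20), and the difference of -1.25 ± 0.29 from the effect in PCs did not pass the threshold (adjusted p = 0.053). Serpini1 also fell in both (PBs 24.2, 23.4, 5.93 and 6.56 TPM), with a difference of -1.22 ± 0.27 (adjusted p = 0.0483). Nes, in contrast, was at 44.8, 40.1, 40.2 and 36.1 TPM in PBs and thus more abundant there than in control PCs, yet nearly the same in both PB genotypes (difference -3.96 ± 0.32, adjusted p = 0.00368). Tubb2a was at 21.1, 22, 21.5 and 17.7 TPM in PBs (difference -2.77 ± 0.18, adjusted p = 0.0021). Pycr1 fell in PBs from 46.6 and 43.6 to 22.8 and 20.9 TPM (adjusted p = 0.0112), which was less than in PCs (difference -1.39 ± 0.16, adjusted p = 0.0109).

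**Figure D4:**
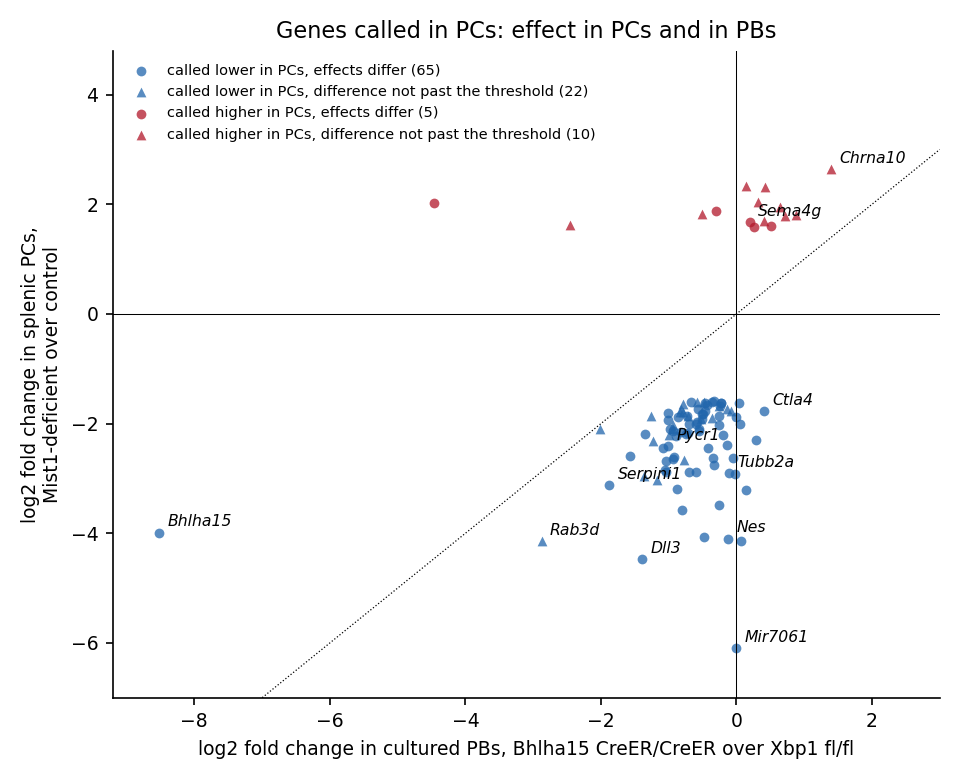
Log2 fold changes of the 102 genes called in PCs, in cultured PBs (x axis, Bhlha15 CreER/CreER over Xbp1 fl/fl) and in splenic PCs (y axis, Mist1-deficient over control). Circles mark genes whose effects differed at an adjusted p under 0.05 in the interaction test (65 lower and 5 higher), triangles the other 22 and 10, and the dotted line marks equal effects. Most blue points lie below the line, with Bhlha15 far to its left and Rab3d close to it. All genes shown were chosen by their change in PCs.

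Mist1 binding was mapped in other cells, LPS-stimulated PBs on day 4, by 2 biotin-tag ChIP-seq experiments (Bio-ChIP-seq) with streptavidin, in which the Bhlha15 fl/fl allele provides tagged Mist1 and R26 BirA/BirA the biotin ligase. The peak lists of 29413 and 30247 entries shared 25635 common regions with a median length of 745 bp. A common region was present within 1 kb of a transcription start site (TSS) at 64 of the 80 genes called lower that could be placed on mm9 (80%, 95% Wilson interval 69.9% to 87.3%), compared with 65.3% of the 11043 placed genes tested. Of the 13 placed genes called higher, 1 had such a region (7.69%, interval 1.37% to 33.3%), and 2 had one (15.4%) within 5 kb or in the second experiment alone. The intervals cover counting error only, and none of these shares was tested. The classes differed in expression, which goes with the share. Part of this follows from the call, which required over 5 TPM in control PCs for lower genes but in Mist1-deficient PCs for higher ones. For genes called lower, the genes at 5 TPM or more given next are thus the nearer background. Genes under 5 TPM in control PCs had a region at the TSS in 35.5% of 1963 cases, those at 5 TPM or more in 71.7% of 9080 cases, and 9 of the 13 genes called higher belonged to the former. Among genes under 1 TPM in the Xbp1 fl/fl PBs, a region was present at the TSS of 27.5% of 1030 genes, 8 of 10 called lower and 0 of 6 called higher. By the call, these 10 genes were over 5 TPM in control PCs, which was not required of the 1030. The share did not grow with the size of the decrease, as it was 88.5% for the 915 genes that were lower by less than 1.5-fold, 82.7% between 1.5- and 2-fold and 75.8% between 2- and 3-fold. It was 57.7% for the 1490 genes higher by adjusted p. Within 10 kb of the gene body, 76 of the 80 genes called lower (95%), 4 of the 13 called higher (30.8%) and 83.5% of all genes had a common region. For the genes called higher this share was 53.8% and 46.2% in the first and second experiment alone, against 87.2% and 88.0% of all genes. Prdm1, Irf4, Xbp1, Ikzf1, Ikzf3, Tcf3, Tcf4 and Pax5 all had one at the TSS although none of them was called.

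**Figure D5:**
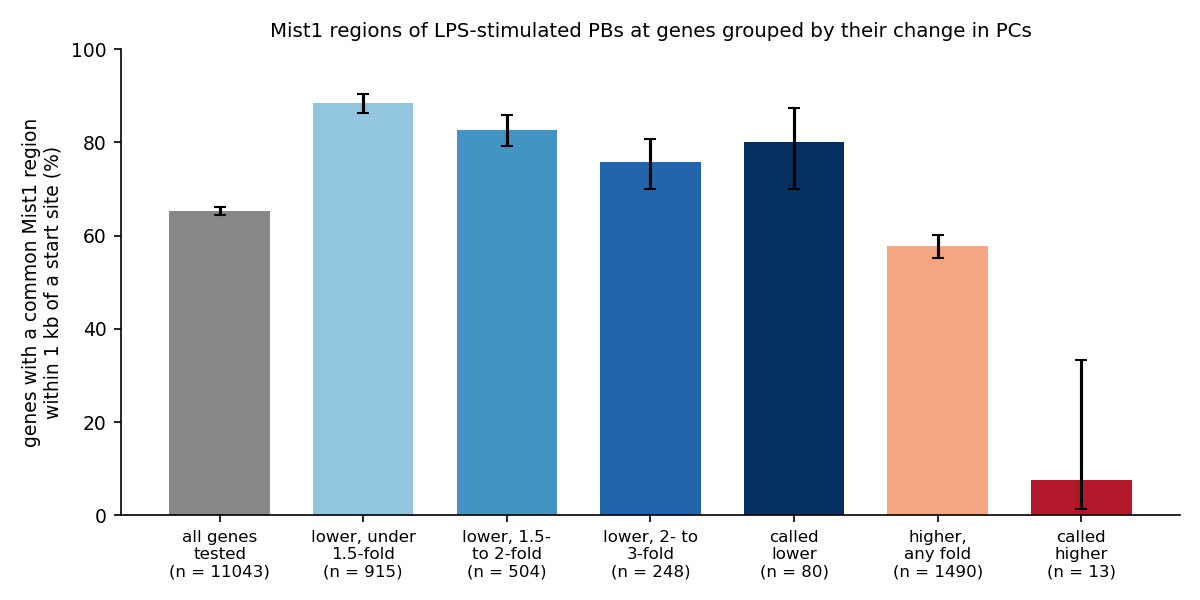
Percentage of genes with a common Mist1 region of LPS-stimulated PBs within 1 kb of an annotated TSS, for all genes tested (grey), genes lower in Mist1-deficient PCs by increasing fold (blue) and genes higher (red). Error bars are 95% Wilson intervals and n is the number of placed genes. All 4 blue bars lie above the grey bar of 65.3%, and the bar of the 13 genes called higher lies lowest at 7.69%.

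The E-boxes at these regions were read from the mm9 genome. In 200-bp windows at the centers of all common regions, CAGCTG was found in 31.5%, CATATG in 12.6% and CAGATG or its complement CATCTG in 24.6%, compared with 8.71%, 4.43% and 14.2% of windows 1 kb to the left. These letters read the same on both strands, apart from the CAGATG and CATCTG pair. At least 1 of them was present in 57.2% of all centers. At the 77 common regions at the TSS of genes called lower it was 57.1%, and at the 8141 at the TSS of all tested genes 37.7%, a difference that was not tested. Within 10 kb of the gene body the shares were close, at 55.8% of 217 regions for genes called lower and 54.0% of 18750 for all tested genes. The center windows of 6 genes with large falls are shown to set such sites in their context. They were taken from genes called lower, in order of their decrease, with a center within 5 kb of the 5′ end of the gene and outside annotated exons. The windows are given on the strand of the gene, in mm9, and capitals mark only the E-box forms counted above, while E-boxes of other forms are left in lower case. They lie upstream of the gene for Bhlha15 (chr5:144950889-144951088, plus strand), Asap3 (chr4:135758498-135758697, plus strand) and Gm996 (chr2:25436996-25437195, minus strand), and in an intron for Rab3d (chr9:21722056-21722255, minus strand), Tmem150a (chr6:72305782-72305981, plus strand) and Serpini1 (chr3:75362105-75362304, plus strand).
Bhlha15: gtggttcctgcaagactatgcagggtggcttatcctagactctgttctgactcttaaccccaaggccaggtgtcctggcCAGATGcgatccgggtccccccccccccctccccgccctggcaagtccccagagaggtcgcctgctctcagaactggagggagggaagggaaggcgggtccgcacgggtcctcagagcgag
Asap3: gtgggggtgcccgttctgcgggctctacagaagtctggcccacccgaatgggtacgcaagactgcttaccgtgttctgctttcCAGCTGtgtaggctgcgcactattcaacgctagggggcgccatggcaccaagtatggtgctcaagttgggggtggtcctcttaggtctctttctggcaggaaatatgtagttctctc
Rab3d: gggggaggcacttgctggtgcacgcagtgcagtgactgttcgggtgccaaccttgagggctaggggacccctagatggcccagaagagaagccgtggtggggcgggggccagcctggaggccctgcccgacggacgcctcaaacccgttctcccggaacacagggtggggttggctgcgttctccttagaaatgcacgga
Gm996: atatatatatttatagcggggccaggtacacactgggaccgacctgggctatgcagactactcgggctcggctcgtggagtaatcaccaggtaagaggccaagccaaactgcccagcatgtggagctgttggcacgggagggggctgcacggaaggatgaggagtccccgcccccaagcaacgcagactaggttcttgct
Tmem150a: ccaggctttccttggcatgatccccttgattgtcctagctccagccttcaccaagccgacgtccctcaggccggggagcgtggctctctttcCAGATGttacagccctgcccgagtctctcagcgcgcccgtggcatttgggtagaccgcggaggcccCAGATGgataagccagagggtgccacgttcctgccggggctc
Serpini1: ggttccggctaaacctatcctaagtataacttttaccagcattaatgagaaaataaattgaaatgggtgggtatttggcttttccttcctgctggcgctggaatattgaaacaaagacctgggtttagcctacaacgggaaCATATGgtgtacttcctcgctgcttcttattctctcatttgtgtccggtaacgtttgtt
Bhlha15 itself thus had a common region with a CAGATG site next to its 5′ end, Asap3 held the CAGCTG form, Tmem150a a pair of CAGATG sites and Serpini1 a CATATG site, while the windows of Rab3d and Gm996 held none of these forms. Of 61 genes called lower with a center window outside exons, 32 held at least 1 of these forms in the one nearest the 5′ end. A match of letters in such windows is a description and does not show which base Mist1 contacts.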

How the data were processed

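Polyadenylated RNA of sorted splenic PCs was sequenced; whether counting used strand is not given in the sources used here. The authors aligned reads to mm9 with STAR (version 2.4.2 per the labels), counted genes with featureCounts 1.5 and deposited TPM without immunoglobulin and T cell receptor genes. TPM values keep no depth, and read numbers given here are estimates, obtained from steps in the TPM values and miRNA hairpin lengths (98.6% to 99.0% of miRNA genes gave whole reads within 0.001 in the PC libraries). Values were scaled by median ratios (factors 0.988 to 1.03) and tested as log2(TPM + 0.1) with limma 3.58.1 (lmFit, eBayes with trend, two-sided, Benjamini-Hochberg over all genes tested) in R 4.3.3. Fold changes are on this scale and understate those of low genes. The trailing _IMP_OVL of gene names was removed. Alternatives were other scalings (none, quantile), pseudocounts, filters and eBayes settings, a 2-fold threshold, all RNA libraries in 1 model, and each library left out in turn. The scripts were tested on simulated data. Peaks had been called by the authors with MACS in each experiment. TSS and gene positions came from GENCODE M1, in which 11043 of the 12028 genes were found.

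Genes named are Bhlha15, the 20 largest falls and up to 12 largest rises among called genes, called members of the lists, 8 regulators, up to 4 members by size in lists without calls, and paralogs, of which a part is described. Members and lists were chosen with earlier results of these data known. Results for some genes are not reported here.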

Additional observations from a re-analysis of the deposited data

Results flagged for a closer look

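For 8 of the named genes the effect of Mist1 loss in splenic PCs differed from that in cultured PBs by the interaction test in limma, and these had the largest differences among called genes with at least 100 estimated reads. Bhlha15 itself fell less in PCs than in PBs, by a difference of 4.54 on the log2 scale (adjusted p = 0.00681). The other differences were toward a larger fall in PCs, with -4.19 for Asap3, -3.96 for Nes, -3.58 for Gm996, -3.34 for Car5b, -3.21 for Mturn, -3.06 for Dll3 and -2.88 for Susd2 (adjusted p between 0.00368 and 0.0208). Apart from Nes, the genes with a larger fall in PCs were under 5 TPM in both reference PB libraries. Asap3 and Susd2 were under 1 TPM there. A low level limits the fall that can be seen in PBs, and its part in these differences was not tested. Cell type, allele, control genotype and culture also differ between both comparisons and cannot be told apart.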

How the results depend on the processing

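No paired analysis was possible because the labels give the groups no shared replicate numbers. Among the called genes that each alternative tested, none changed sign; up to 19 of the 87 lower and 5 of the 15 higher ones were not tested, the most with a mean of at least 5 TPM required. At 2-fold in place of 3-fold, 304 genes were called lower and 64 higher, and with a pseudocount of 1, 8 were called higher. With each library left out in turn, 74 to 109 genes were called lower and 10 to 30 higher, and 816 to 2172 were lower and 294 to 2085 higher by adjusted p alone. Without a trend in eBayes, 844 were higher by adjusted p. The difference between PCs and PBs counted 21 to 495 genes lower and 5 to 253 higher with a library left out, and 430 higher with quantile normalization. Quantile normalization turned Xbp1 to -0.029, and Pax5 was between -0.37 and 0.18 with a library left out. For genes called lower, the share with a Mist1 region was 87.5% within 5 kb of a TSS, and 98.8% within 10 kb of the gene body in the second experiment alone. The causes were not tested. With limma voom on estimated reads, added after seeing the data, 83 of the 87 and 11 of the 15 calls were kept. With 2 libraries a group, and few reads in genes near 1 TPM, small changes of low genes could not be resolved.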

Other observations

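Semaphorins and plexins, which act as ligands and receptors in cell guidance, held genes of both directions. Of 13 tested, 2 were lower and 5 higher by adjusted p in limma (15.4% and 38.5%, against 16.2% and 13.3% of all genes), with Plxna3 called lower (16.7, 13.7, 1.82 and 2.52 TPM) and Sema4g called higher. Of 28 ABC transporters, 10 were lower and 5 higher by adjusted p (35.7% and 17.9%), and of 47 proteasome subunits 5 and 8 (10.6% and 17.0%). Of 75 mitochondrial ribosomal protein genes, 3 were lower and 9 higher (4% and 12%), without a change past 2-fold.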
